A study of Mus musculus with 20 samples.

Results

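Undifferentiated Kmt2d-/- cells were compared with Kmt2d+/+ cells that had been differentiated for 7 days, to ask which features of the day 7 wild-type state the mutant cells already reached or exceeded before differentiation and which they lacked. The libraries were taken by genotype and day from the labels: 2 Kmt2d-/- clones at day 0 and 3 Kmt2d+/+ clones at day 7. They came from 10 of the 20 deposited samples, which are 5 of the 10 libraries, because each library was sequenced on 2 flow cells and its runs were summed. All clones derive from ATDC5, a mouse chondrogenic cell line, and each clone is a single line. Kmt2d-/- clones 1 and 2 (10-7 and 96-9 in the labels) carried deletions of the catalytic SET domain on both alleles and were grown in standard medium, DMEM/F12 with 5% FBS. Kmt2d+/+ clones 1, 2 and 3 (10-5, 10-7 and 10-8) were harvested at day 7, after 7 days in differentiation medium with insulin-transferrin-selenium, ascorbic acid and beta-glycerophosphate. Genotype, days in culture and medium therefore differ together and cannot be told apart in this comparison. The Kmt2d+/+ clones at day 0 serve as a reference for single genes. They share lines with the day 7 group.

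KMT2D is a methyltransferase that places mono- and dimethyl marks on lysine 4 of histone H3, mainly at enhancers. ATDC5 cells move in culture from a mesenchymal progenitor state through a cartilage phase, marked by SOX9 and its collagen and proteoglycan targets, toward hypertrophic and mineralizing cells marked by type X collagen and bone matrix genes. BMP, TGF-beta, Wnt, FGF and YAP signals steer these steps in growth plate cartilage.

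Kmt2d itself (chr15:98831669-98871204) was at 205 and 148 CPM in mutant clones 1 and 2 and at 187, 173 and 207 CPM in wild-type clones 1, 2 and 3 at day 7, the order used for all values below. These levels overlapped (log2 difference -0.1, 95% interval -0.59 to 0.39, edgeR adjusted p = 0.817). A gene-level count also holds reads from outside the deleted domain, so it does not check the genotype. CPM are counts per 1000000 counts of the TMM-scaled library total. Total counts were 41366018 to 66237188 over the 5 libraries, and the floor of 3 counts was at most 0.0725 CPM. The 10 most abundant genes took 12.8% of counts in mutant clone 1, 8.26% in mutant clone 2, and 6.19% to 7.6% in the day 7 wild-type clones. All differences below are mutant day 0 minus wild-type day 7 on the log2 scale unless said otherwise.

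Of 15467 genes tested, 926 (5.99%) differed between the undifferentiated mutant and the day 7 wild-type clones at an edgeR adjusted p under 0.05. The mutant clones were higher for 408 genes (2.64%) and lower for 518 (3.35%). A further question was where the mutant clones already matched the day 7 level. For 6197 genes (40.1%) the 95% interval of the difference lay within 2-fold in either direction, and 29 of these genes also passed the test. For the other 8373 genes the clones varied too much to place them in either class. Leaving out Kmt2d+/+ clone 3 lowered the number of passing genes to 27, leaving out Kmt2d-/- clone 1 to 146, Kmt2d-/- clone 2 to 322 and Kmt2d+/+ clone 1 to 450, and leaving out Kmt2d+/+ clone 2 gave 1054. The share of passing genes that were higher, 44.06%, was 62.42% without Kmt2d-/- clone 2, 32.88% without Kmt2d-/- clone 1, 28% without Kmt2d+/+ clone 1 and 11.11% without Kmt2d+/+ clone 3. A count of clone order alone is more permissive: both mutant clones lay above every day 7 wild-type clone for 3031 genes (19.6%) and below every one for 3373 (21.8%). The p-values rest on the spread between libraries of the same genotype and day, pooled over all 10 libraries. Day 0 and day 7 libraries of a line enter as if independent, although they share that line (clone correlation 0.49 in limma-voom). With the 2 groups alone in the fit, 209 genes passed.

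In the wild-type clones 471 genes (3.05%) rose and 315 (2.04%) fell from day 0 to day 7. Between the genotypes at day 0, 332 genes differed. Without Kmt2d+/+ clone 1 or clone 3, 0 genes passed in the day comparison by edgeR, with 2115 and 1921 genes at an unadjusted p under 0.05, and without Kmt2d-/- clone 2 the count was 517. The genotype comparison at day 0 kept 68 calls without Kmt2d-/- clone 1, 38 without Kmt2d-/- clone 2, 16 without Kmt2d+/+ clone 1 and 10 without Kmt2d+/+ clone 3, and gave 912 without Kmt2d+/+ clone 2. These comparisons share libraries with the main one, so their values are set beside it for named genes and no overlap of calls is given.

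On the first principal component of all 10 libraries (34.3% of the variance) the mutant day 0 clones, at -3.34 and 8.06, lay next to the day 7 wild-type clones, at -12.4, -31.1 and -15.5. The wild-type clones at day 0 lay at 111, 45.6 and 90.1. On the second component (24.5%) the mutant day 0 clones, at 81.4 and 80.0, were apart from the day 7 wild-type clones, at -49.3, -86.2 and -72.9. The wild-type clones at day 0 lay at 11.7, -20 and 0.917 on this second component. The mutant day 7 clones, which also shape these axes, were at -98.7 and -93.8 on the first component and 34 and 20.4 on the second. Along the first axis the undifferentiated mutants therefore lay between the wild-type days. Along the second they lay apart from both.

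**Figure D1:**
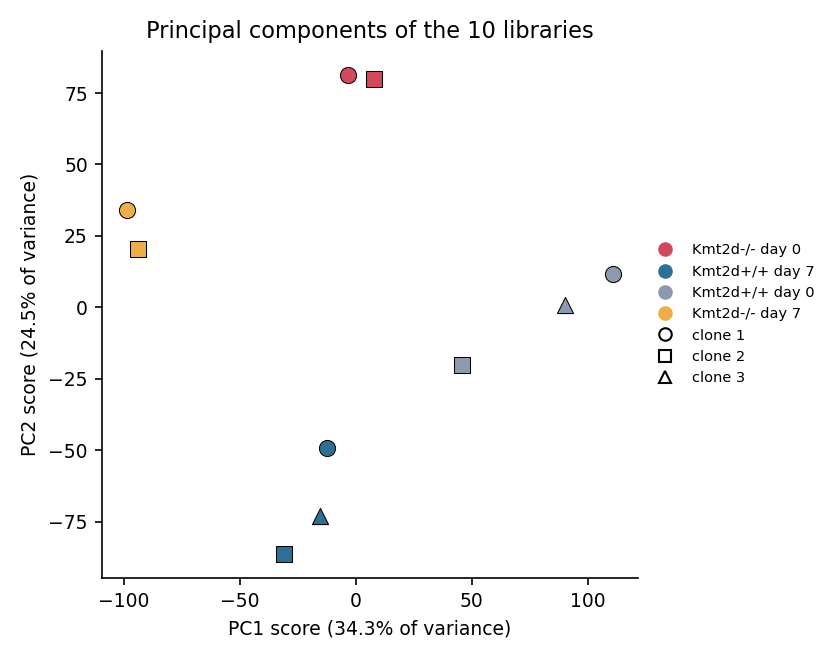
Principal components of log2 CPM for all 10 libraries, with the first component on the horizontal axis (34.3% of variance) and the second on the vertical axis (24.5%). Points are libraries, colored by genotype and day; the mutant day 0 clones share the middle of the horizontal axis with the day 7 wild-type clones and sit above them on the vertical axis, at 81.4 and 80.0 against -49.3 and below.

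Of 25 transcription factors of cartilage formation tested, 18 were not resolved and 6 lay within 2-fold, a smaller share than the 40.1% of all genes. SOX9, the factor that switches on cartilage matrix genes, had Sox9 levels of 155 and 175 CPM in the mutant clones and 228, 116 and 96.1 CPM in the day 7 wild-type clones, which overlapped (log2 difference 0.17, 95% interval -0.94 to 1.28, edgeR adjusted p = 0.864). At day 0 the wild-type clones were at 33.7, 69.4 and 21.2 CPM, below both mutant clones, though neither comparison with them passed. Its partner genes Sox5 (-0.23, interval -1.67 to 1.2) and Sox6 (0.58, interval -0.52 to 1.69) had intervals too wide to call them alike. Runx1, which encodes a Runt factor of early cartilage cells, was at 154 and 94.6 CPM in the mutant and 30.7, 28.9 and 30.5 CPM in the day 7 wild-type clones, with no overlap (log2 difference 2.05 ± 0.23 (SE), edgeR adjusted p = 0.00519). Runx1 lost its call without Kmt2d+/+ clone 3 (edgeR adjusted p = 0.056) and passed without each of the other clones. Runx2, the main driver of hypertrophy, was at 278 and 251 CPM against 475, 306 and 368 CPM, lower in both mutants without passing (log2 difference -0.53, 95% interval -1.05 to -0.02, edgeR adjusted p = 0.19). Shox2, a limb cartilage factor, was at 4.86 and 7.08 CPM against 43.6, 32.4 and 40.9 CPM (log2 difference -2.71, 95% interval -4.16 to -1.25, edgeR adjusted p = 0.0578). The log2 difference of Shox2 was -2.46 (edgeR adjusted p = 0.0293) without Kmt2d-/- clone 1 and -3 (edgeR adjusted p = 0.0155) without Kmt2d-/- clone 2. Of 25 factors tested, Runx1 was the 1 that passed, and DESeq2 called 6. At an unadjusted p under 0.05 there were 8, beside 3945 of all 15467 genes. The median difference was 0.133 beside -0.00808 over all genes.

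Of the 7 cartilage collagen genes 0 passed by edgeR, and the fitted difference was positive for 2 and negative for 5. Col2a1 (chr15:97975602-98004695), the main fibril-forming collagen of cartilage, was at 2533 and 806 CPM in the mutant clones, 332, 126 and 253 CPM in the day 7 wild-type clones and 2.72, 34.4 and 8.66 CPM in the wild-type clones at day 0. Every mutant value exceeded every day 7 wild-type value, but the clones of each group spread widely and the difference missed the threshold (log2 difference 2.82, 95% interval 0.83 to 4.81, edgeR adjusted p = 0.0883). Against wild-type day 0 the mutants were higher (log2 difference 6.77, edgeR adjusted p = 0.023), and the wild-type clones rose over 7 days (log2 difference 3.95, edgeR adjusted p = 0.0423). Its log2 difference from day 7 was 1.77 (edgeR adjusted p = 0.402) without Kmt2d-/- clone 1 and 3.42 (edgeR adjusted p = 0.164) without Kmt2d-/- clone 2. Col11a1, a minor chain of the same fibrils, showed the same order at 3332 and 958 CPM against 201, 297 and 209 CPM (log2 difference 3.19, edgeR adjusted p = 0.1).

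The fibril-surface collagen gene Col9a1 lay the other way, at 8.09 and 1.74 CPM in the mutant and 77.3, 10.6 and 9.59 CPM in the day 7 wild-type clones (log2 difference -2.73, 95% interval -4.93 to -0.52, edgeR adjusted p = 0.158). It rose in the wild-type clones from 0.315, 1.11 and 0.316 CPM at day 0 (log2 difference 5.79, edgeR adjusted p = 0.0276). Col11a2 was at 11 and 16.4 CPM against 229.5, 14 and 46.7 CPM and overlapped, because wild-type clone 2 was as low as the mutants (log2 difference -2.82, edgeR adjusted p = 0.12). With 1 mutant clone left out, Col9a1 had a log2 difference of -4.22 (Kmt2d-/- clone 1 omitted) or -2 (Kmt2d-/- clone 2 omitted). Omitting Kmt2d+/+ clone 1, the highest day 7 clone for Col9a1 and Col11a2, shrank the difference of each gene. Col9a1 then stood at -1.04 (edgeR adjusted p = 0.454) and Col11a2 at -1.15 (edgeR adjusted p = 0.33). When Kmt2d+/+ clone 2 was omitted instead, Col11a2 passed at -3.33 (edgeR adjusted p = 0.0479). Of the 7 genes, 4 had an unadjusted p under 0.05, DESeq2 called 2 higher and 1 lower, limma-voom called 1 higher, and limma-voom with clone as a random effect called 0. The median was -1.96 and 0 of the 7 lay within 2-fold.

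**Figure D2:**
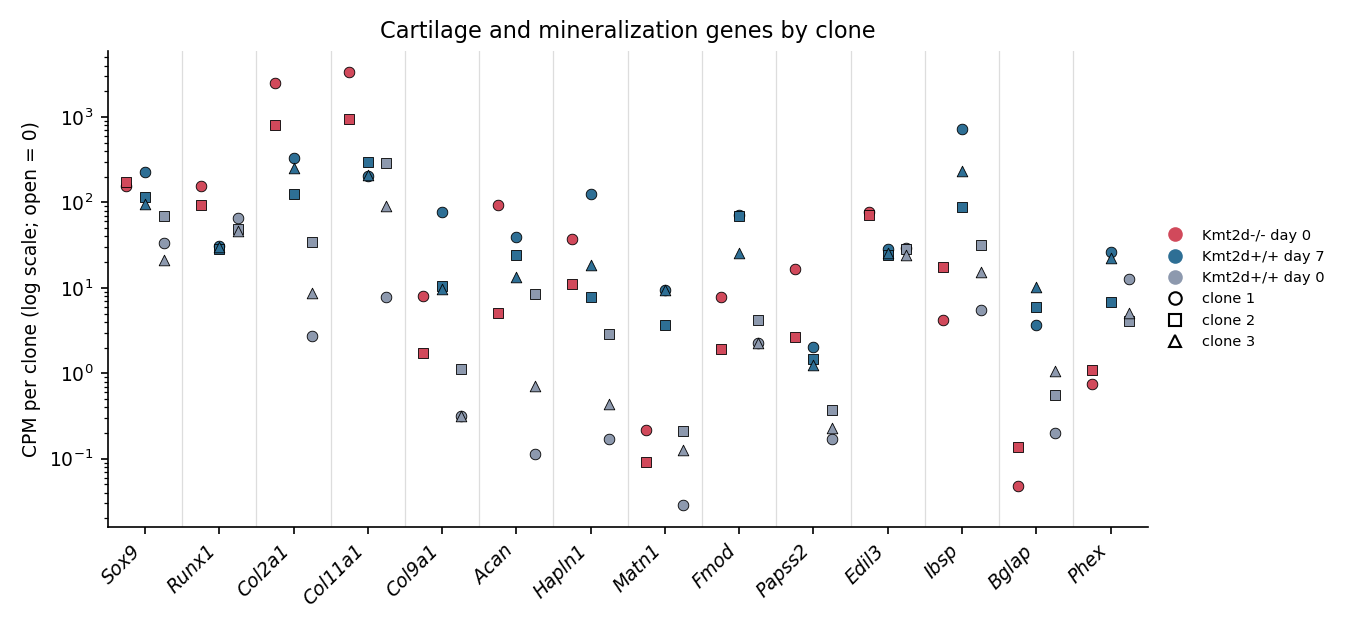
CPM per clone on a log axis for cartilage and mineralizing matrix genes in Kmt2d-/- day 0, Kmt2d+/+ day 7 and Kmt2d+/+ day 0 clones. Points are single clones; for Col2a1 both mutant clones lie above all wild-type clones, and for Matn1 and Bglap both lie below the day 7 wild-type clones.

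Proteoglycans and adhesion proteins of cartilage matrix held both kinds of difference. Matn1 (chr4:130944385-130955475), which encodes the matrix filament protein matrilin-1, was at 0.217 and 0.0917 CPM in the mutant clones and 9.54, 3.66 and 9.46 CPM in the day 7 wild-type clones, without overlap (log2 difference -5.6 ± 0.68 (SE), edgeR adjusted p = 0.0082). It rose in the wild type from 0.0286, 0.209 and 0.126 CPM at day 0 (log2 difference 5.89, edgeR adjusted p = 0.00741), so the undifferentiated mutants sat at the level of undifferentiated wild-type clones. Fmod, which encodes the collagen-binding proteoglycan fibromodulin, followed the same pattern at 7.92 and 1.9 CPM in the mutants, 71.6, 68.9 and 25.5 CPM in wild-type day 7 and 2.29, 4.2 and 2.28 CPM in wild-type day 0 (log2 difference -3.49, edgeR adjusted p = 0.0317). Edil3, which encodes an integrin-binding matrix protein, was higher in the mutants, at 77.4 and 71.1 CPM against 28.5, 24 and 25.9 CPM (log2 difference 1.51 ± 0.17 (SE), edgeR adjusted p = 0.00519). Its wild-type levels at day 0, 29.1, 28.8 and 24.5 CPM, matched those at day 7, and the mutants were higher than them too (log2 difference 1.44, edgeR adjusted p = 0.00999).

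Sulfation of the cartilage proteoglycan chains needs an activated sulfate donor, made by the enzyme that Papss2 encodes. Papss2 was at 16.4 and 2.64 CPM in the mutants and 2.06, 1.49 and 1.24 CPM in the day 7 wild-type clones, with mutant clone 1 well above the rest (log2 difference 2.58, edgeR adjusted p = 0.0449). Chst15, which encodes a chondroitin sulfotransferase, was lower in the mutants at 11.7 and 9.45 CPM against 25.2, 21.8 and 22.2 CPM (log2 difference -1.12, edgeR adjusted p = 0.032). When each clone was left out in turn, the calls kept among these 5 genes numbered 1 without Kmt2d-/- clone 1, 2 without Kmt2d-/- clone 2, 2 without Kmt2d+/+ clone 1, 3 without Kmt2d+/+ clone 2 and 0 without Kmt2d+/+ clone 3. Where the fold moved by more than 1.5 times, the log2 differences without Kmt2d-/- clone 1 were -4.86 for Fmod, -6.32 for Matn1 and 0.73 for Papss2. Those without Kmt2d-/- clone 2 were -2.8 for Fmod and 3.37 for Papss2.

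Acan, which encodes the large proteoglycan aggrecan, was at 93.4 and 5.11 CPM in the mutants and 39.6, 24.4 and 13.6 CPM in the day 7 wild-type clones, with 1 mutant clone above and the other below all of them (log2 difference 0.93, 95% interval -2.14 to 4, edgeR adjusted p = 0.709). The link protein gene Hapln1 was at 37.5 and 11 against 124, 7.86 and 18.4 CPM (log2 difference -1.05, 95% interval -3.74 to 1.64, edgeR adjusted p = 0.639). Both genes thus reached the day 7 wild-type range in at least 1 mutant clone, and the intervals allow large differences either way. Comp, which encodes a pentameric matrix protein, was at 0.29 and 0.459 CPM against 7.09, 1.19 and 2.35 CPM and did not pass (log2 difference -3.23, edgeR adjusted p = 0.0638). The log2 difference of Comp was -3.65 (edgeR adjusted p = 0.0477) without Kmt2d+/+ clone 2. It was -2.23 (edgeR adjusted p = 0.119) without Kmt2d+/+ clone 1. Of 23 matrix genes tested, 1 was higher and 2 lower, beside 2.64% and 3.35% of all genes, with a median of -0.753. In both mutants 9 of the 23 lay below every day 7 wild-type clone, beside 21.8% of all genes. Of 20 sulfation genes tested, 11 were within 2-fold, 1 was higher and 1 lower.

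Of 19 hypertrophic and mineralizing genes tested, 3 passed (Ibsp, Bglap and Ptch1), and of 12 osteoblast genes 2 passed (Bglap2 and Phex), all lower in the undifferentiated mutants, beside 3.35% of all genes lower. Of the 19 genes 5 had a higher fitted level and 1 lay within 2-fold, and the summed osteoblast list overlapped, at 27900 to 70200 CPM in the mutants and 27700 to 37100 CPM in the day 7 wild type. Ibsp, which encodes bone sialoprotein, was at 4.15 and 17.4 CPM in the mutants and 729, 89.7 and 236 CPM in the day 7 wild-type clones (log2 difference -5.03 ± 0.93 (SE), edgeR adjusted p = 0.0424). It rose in the wild type from 5.44, 31.4 and 15.3 CPM at day 0 (log2 difference 4.33, edgeR adjusted p = 0.0392), and the mutant levels lay within that day 0 range or just below it. Bglap, an osteocalcin gene, was at 0.0483 and 0.138 CPM in the mutants, 3.68, 6.04 and 10.3 CPM at wild-type day 7 and 0.2, 0.557 and 1.07 CPM at wild-type day 0 (log2 difference -6.12, edgeR adjusted p = 0.0119). Its near-identical neighbour Bglap2 gave 0.121 and 0.0688 CPM against 3.21, 5.6 and 10.9 CPM (log2 difference -6.08, edgeR adjusted p = 0.011), and the reads of these copies may be split between them uncertainly. Both osteocalcin genes were lower in the mutants than in every day 7 wild-type clone. Phex, which encodes a phosphate-regulating endopeptidase, was at 0.749 and 1.1 against 26.4, 6.83 and 22.5 CPM (log2 difference -4.32 ± 0.63 (SE), edgeR adjusted p = 0.018), below the wild-type day 0 values of 12.6, 4.11 and 5.06 CPM as well. Ptch1, the hedgehog receptor gene and a hedgehog target, was at 20.8 and 23.5 CPM in the mutants and 66.8, 38.4 and 47 CPM in the day 7 wild-type clones (log2 difference -1.2, edgeR adjusted p = 0.0496). Calls among these 5 genes with 1 clone left out came to 0 without Kmt2d-/- clone 1, 0 without Kmt2d-/- clone 2, 3 without Kmt2d+/+ clone 1, 5 without Kmt2d+/+ clone 2 and 0 without Kmt2d+/+ clone 3. The fold moved by more than 1.5 times for Ibsp, to a log2 difference of -4.33 without Kmt2d-/- clone 1 and -3.92 without Kmt2d+/+ clone 1. The values without Kmt2d-/- clone 2 were -6.4 for Ibsp and -7.04 for Bglap.

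Other members of this stage did not pass. Mgp, which encodes an inhibitor of calcification, was at 21.6 and 17.5 CPM in the mutants, 109.8, 219 and 117 CPM in the day 7 wild type and 0.659, 4.55 and 1.58 CPM in the day 0 wild type, so the mutants were intermediate (log2 difference -2.93, 95% interval -4.44 to -1.41, edgeR adjusted p = 0.0545). Phospho1, which encodes a phosphatase of matrix vesicles, was also intermediate, at 112 and 90.3 CPM between wild-type day 7 values of 889, 157 and 284 CPM and wild-type day 0 values of 22.6, 56.9 and 31.2 CPM (log2 difference -2.14, edgeR adjusted p = 0.0957). Dmp1, which encodes an acidic matrix protein of mineralizing cells, was at 0.362 and 1.1 CPM against 5.18, 70.3 and 102 CPM, a gap between all clones that nevertheless missed the threshold (log2 difference -6.33, edgeR adjusted p = 0.0544). Col10a1, the defining collagen gene of hypertrophic chondrocytes, was instead at 29.9 and 27.4 CPM in the mutants and 28, 40.7 and 39.99 CPM in the day 7 wild-type clones, which overlapped (log2 difference -0.34, 95% interval -2.21 to 1.53, edgeR adjusted p = 0.838). Its wild-type day 0 values were 3.75, 21.6 and 3.81 CPM, all below the mutants. Of the 19 hypertrophic and mineralizing genes, DESeq2 called 7, all lower, and the median was -1.2. Calls gained with 1 clone left out had log2 differences of, for Mgp, -2.54 (edgeR adjusted p = 0.0361) without Kmt2d+/+ clone 2; for Phospho1, -2.54 (edgeR adjusted p = 0.0351) without Kmt2d+/+ clone 2; and for Dmp1, -6.87 (edgeR adjusted p = 0.0493) without Kmt2d+/+ clone 1.

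Among collagens outside cartilage, Col16a1 was at 49.6 and 20.8 CPM in the mutants and 179, 177 and 257 CPM in the day 7 wild type (log2 difference -2.54, edgeR adjusted p = 0.0483), and its wild-type day 0 values of 112, 215 and 289.6 CPM were as high. Col18a1, a basement membrane collagen gene, was at 0.725 and 1.72 CPM against 34.2, 12.2 and 24.5 CPM (log2 difference -4.27, edgeR adjusted p = 0.0192). Both collagens were lower in the mutants with no overlap. Lox, which encodes the enzyme that crosslinks collagen, was higher, at 2491 and 1344 against 492, 682 and 319 CPM (log2 difference 1.95, edgeR adjusted p = 0.0215).

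Of 21 matrix proteases and inhibitors tested, 3 were higher and 1 lower, beside 2.64% and 3.35% of all genes, with a median of 0.198. Timp2, a metalloprotease inhibitor gene, was at 2716 and 2479 CPM in the mutants against 1458, 1166 and 1309 CPM (log2 difference 0.99 ± 0.15 (SE), edgeR adjusted p = 0.012), and its relative Timp3 at 1971 and 963 against 294, 580.4 and 428 CPM (log2 difference 1.76, edgeR adjusted p = 0.0286). Timp3 fell over 7 days in the wild type from 1480, 1886 and 2208 CPM (log2 difference -2.1, edgeR adjusted p = 0.0202), and mutant clone 1 lay within that range and clone 2 below it. Of the proteases, Adam19 was higher at 47.7 and 26.8 against 12.1, 12.5 and 15.4 CPM (log2 difference 1.48, edgeR adjusted p = 0.0288), whereas Adamts4, which encodes an aggrecanase, was lower at 0.507 and 1.31 against 32.1, 4.19 and 33.4 CPM (log2 difference -4.67, edgeR adjusted p = 0.0321). The 7 calls were reduced by leaving out a clone, to 0 without Kmt2d-/- clone 1, 4 without Kmt2d-/- clone 2, 2 without Kmt2d+/+ clone 1, 5 without Kmt2d+/+ clone 2 and 0 without Kmt2d+/+ clone 3. Clones that moved the fold by over 1.5 times gave log2 differences, without Kmt2d-/- clone 1, of -3.29 for Col16a1 and 1.15 for Timp3. Those without Kmt2d-/- clone 2 were -5.02 for Col18a1 and -5.51 for Adamts4.

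Of 40 BMP and TGF-beta signalling genes tested, 7 passed by edgeR, all higher in the undifferentiated mutants, against 2.64% of all genes higher, and the median was 0.708. At an unadjusted p under 0.05, 17 members were higher and 8 lower, and DESeq2 called 12 higher and 5 lower, so the list did not move one way throughout. The ligand gene Inhba (chr13:16011851-16031621), which encodes the activin A subunit, was at 713 and 196 CPM in the mutants and 45.4, 36.7 and 34.8 CPM in the day 7 wild type (log2 difference 3.54 ± 0.43 (SE), edgeR adjusted p = 0.00683). It fell in the wild type from 294, 219 and 223 CPM at day 0 (log2 difference -2.65, edgeR adjusted p = 0.0194). Mutant clone 1 lay above the range of the undifferentiated wild type and clone 2 just below it. Inhba and Id4 lie on the first 60 Mb of chromosome 13, a segment in which many genes were higher in the mutants. Grem1, which encodes a secreted BMP antagonist, was at 300.0 and 222 against 21.2, 12.5 and 30.9 CPM (log2 difference 3.6, edgeR adjusted p = 0.0257), above the wild-type day 0 values of 11.1, 46.3 and 37 CPM too.

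Both inhibitory Smad genes, which are feedback targets of the pathway, exceeded the day 7 level. Smad6 was at 178 and 131 CPM in the mutants, 31.8, 27.9 and 44.9 CPM at wild-type day 7 and 77.7, 83 and 88.1 CPM at wild-type day 0 (log2 difference 2.15, edgeR adjusted p = 0.0104). Smad7 was at 92.1 and 75.1 CPM in the mutants, 24.7, 24.7 and 17.2 CPM at wild-type day 7 and 109, 77.3 and 90.3 CPM at wild-type day 0 (log2 difference 1.91 ± 0.22 (SE), edgeR adjusted p = 0.00519). Each fell in the wild type over 7 days, Smad6 by a log2 difference -1.25, edgeR adjusted p = 0.0433 and Smad7 by a log2 difference -2.05, edgeR adjusted p = 0.00741. The BMP-responsive Smad gene Smad9 was at 33.8 and 55 against 17, 11.7 and 16 CPM (log2 difference 1.58, edgeR adjusted p = 0.0362). Its upstream type I receptor gene Acvr1 was at 92.3 and 63.3 against 37.6, 43.1 and 46.9 CPM (log2 difference 0.87, edgeR adjusted p = 0.035), and the target gene Id4 at 2.54 and 3.99 against 0.592, 0.722 and 0.409 CPM (log2 difference 2.5, edgeR adjusted p = 0.0157). No clone of either group overlapped for these 3 genes. Bmp4, a ligand gene, was at 1096 and 358 CPM against 158, 257 and 244 CPM and missed the threshold (log2 difference 1.73, edgeR adjusted p = 0.0511). Its log2 difference was 0.71 (edgeR adjusted p = 0.31) without Kmt2d-/- clone 1 and 2.32 (edgeR adjusted p = 0.0335) without Kmt2d-/- clone 2. Of these 7 genes, the number that still passed was 4 without Kmt2d-/- clone 1, 4 without Kmt2d-/- clone 2, 3 without Kmt2d+/+ clone 1, 4 without Kmt2d+/+ clone 2 and 0 without Kmt2d+/+ clone 3. The fold of Inhba moved by more than 1.5 times, to log2 differences of 2.33 without Kmt2d-/- clone 1 and 4.2 without Kmt2d-/- clone 2.

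YAP is a transcriptional coactivator that responds to cell spreading and tension. Of 12 genes tested from a list of YAP targets and the CCN family, 4 passed, all higher in the mutants, beside 2.64% of all genes higher. The median was 1.01. At an unadjusted p under 0.05, 5 were higher and 1 lower, and DESeq2 called 5, all higher. Ccn2 (chr10:24595442-24598683), which encodes connective tissue growth factor, was at 1007 and 262 CPM in the mutants and 114, 109 and 53.7 CPM in the day 7 wild type (log2 difference 2.78 ± 0.5 (SE), edgeR adjusted p = 0.0192). In the wild type it fell from 2193, 2587 and 2628 CPM at day 0 (log2 difference -4.74, edgeR adjusted p = 0.00741), so the mutants lay between the wild-type days. The kinase gene Lats2, which restrains YAP and is itself a target, was at 371 and 165 against 92.3, 70.3 and 78.8 CPM (log2 difference 1.73, edgeR adjusted p = 0.0198). Ajuba, a LIM protein gene of the same pathway, was at 339 and 206 against 106, 99.4 and 97.9 CPM (log2 difference 1.43, edgeR adjusted p = 0.011) with wild-type day 0 values of 223, 241 and 245 CPM, and Amotl2 was at 1180.2 and 656 against 400.5, 362 and 383 CPM (log2 difference 1.26, edgeR adjusted p = 0.0315).

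Of 18 contractile and myofibroblast genes tested, 3 passed, all higher in the mutants, beside 2.64% of all genes higher. A lower fitted level was found for 7 of the 18, and the median was 0.251. Actn1, which encodes alpha-actinin, was at 965 and 603 CPM in the mutants, 223, 195 and 224 CPM in the day 7 wild type and 1012, 586 and 879 CPM in the day 0 wild type (log2 difference 1.87 ± 0.29 (SE), edgeR adjusted p = 0.012). Vcl, the vinculin gene, was at 1159.9 and 668 against 362, 384 and 496 CPM (log2 difference 1.14, edgeR adjusted p = 0.044), and the caldesmon gene Cald1 at 2372 and 1518 against 987, 896 and 1226 CPM (log2 difference 0.91, edgeR adjusted p = 0.0456). For each of these 3 genes the difference of the mutants from wild-type day 0 did not pass and the wild type fell by day 7. Summed over the 19 contractile markers, levels were 8840 to 17000 CPM in the mutants and 7830 to 8440 CPM in the day 7 wild type. When each clone was left out in turn, the calls kept among these 7 genes numbered 1 without Kmt2d-/- clone 1, 6 without Kmt2d-/- clone 2, 2 without Kmt2d+/+ clone 1, 3 without Kmt2d+/+ clone 2 and 0 without Kmt2d+/+ clone 3. Where the fold moved by more than 1.5 times, the log2 differences without Kmt2d-/- clone 1 were 1.51 for Ccn2 and 1.04 for Lats2. That of Ccn2 without Kmt2d-/- clone 2 was 3.45.

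The Ajuba promoter is shown because it holds the letters GGAATG, the core sequence that TEAD proteins, the DNA-binding partners of YAP, recognize. Both strands of the 250 bases before the RefSeq start (GRCm38.p6) were searched for GGAATG or its reverse complement CATTCC. A match was found in 5 of the 7 tested members of the YAP target and CCN list with a promoter entry (71.4%). The share was 13.3% of all tested genes with an entry and 12.6% of all promoters. The Ajuba window lies on the minus strand at chr14:54577662-54577911 and is written along that strand. Its matches, in capitals, begin 186 and 164 bases before the start.
Ajuba: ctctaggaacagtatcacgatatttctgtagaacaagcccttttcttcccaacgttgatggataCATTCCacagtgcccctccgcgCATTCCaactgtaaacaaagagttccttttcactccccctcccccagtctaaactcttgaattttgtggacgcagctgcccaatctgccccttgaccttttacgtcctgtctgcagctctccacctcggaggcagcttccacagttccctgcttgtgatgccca
A match is a description of the letters in this window.

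**Figure D3:**
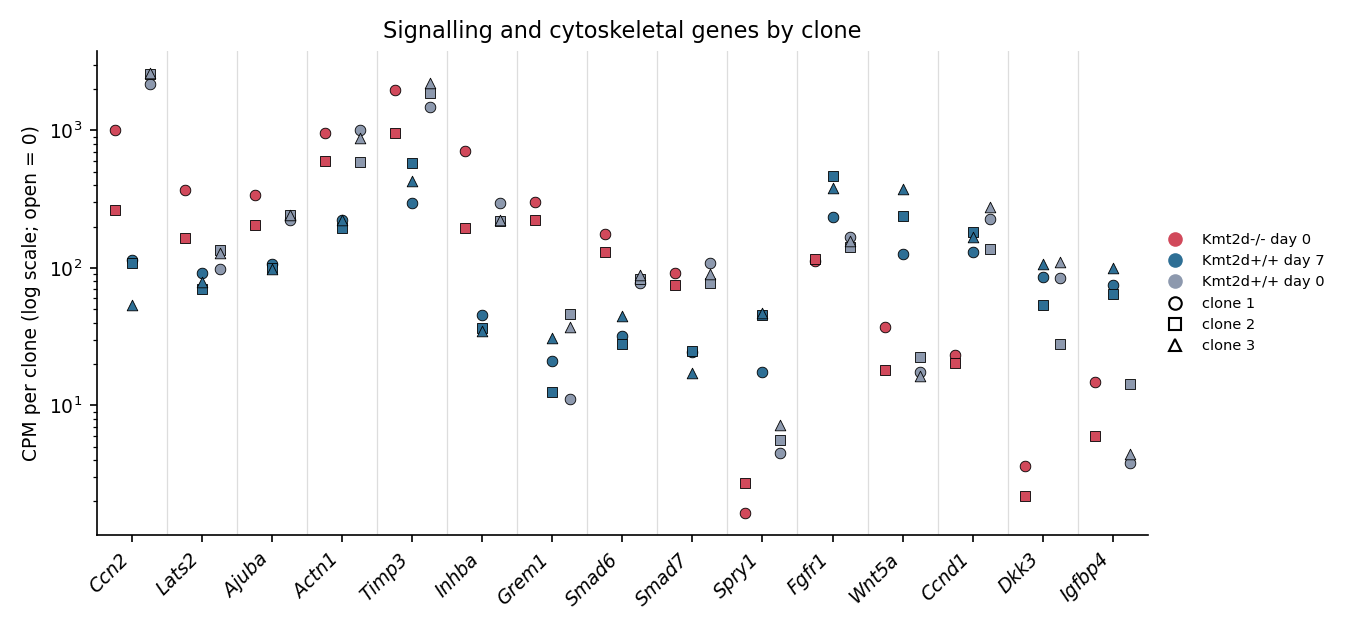
CPM per clone on a log axis for signalling, YAP-target and cytoskeletal genes in Kmt2d-/- day 0, Kmt2d+/+ day 7 and Kmt2d+/+ day 0 clones. Points are single clones; Ccn2, Inhba, Smad7 and Actn1 are higher in both mutant clones than in every day 7 wild-type clone, and Spry1, Wnt5a, Ccnd1 and Dkk3 are lower.

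In Wnt signalling, Wnt5a, a noncanonical ligand gene of the growth plate, was at 37.5 and 18.1 CPM in the mutants, 127, 238 and 375 CPM in the day 7 wild type and 17.4, 22.3 and 16.4 CPM in the day 0 wild type (log2 difference -3.15 ± 0.45 (SE), edgeR adjusted p = 0.0152). The wild type rose over 7 days (log2 difference 3.72, edgeR adjusted p = 0.00939), and the mutants lay at or just above the wild-type day 0 values. Dkk3, which encodes a Dickkopf-family secreted protein, was at 3.6 and 2.2 against 85.6, 54 and 107 CPM (log2 difference -4.82, edgeR adjusted p = 0.00821). Ccnd1, which encodes cyclin D1, was at 23.3 and 20.2 against 130.2, 182 and 168 CPM (log2 difference -2.88, edgeR adjusted p = 0.0064). For both genes the wild type was similarly high at day 0, at 84.6, 28.2 and 110.3 CPM for Dkk3 and 226, 137 and 278 CPM for Ccnd1, and the mutants were lower than it as well (edgeR adjusted p = 0.019 and 0.00691). The transcription factor gene Tcf7 was at 9.44 and 10.1 against 26.5, 23.4 and 22.9 CPM (log2 difference -1.31, edgeR adjusted p = 0.0184), and the receptor gene Fzd7 was higher at 41.7 and 40.1 against 26.1, 19.6 and 24 CPM (log2 difference 0.82, edgeR adjusted p = 0.0436). Axin2, a canonical Wnt target, was at 2.32 and 2.64 against 11.8, 3.35 and 9.83 CPM and did not pass (log2 difference -1.75, edgeR adjusted p = 0.0959). The log2 difference of Axin2 was -2.12 (edgeR adjusted p = 0.0332) without Kmt2d+/+ clone 2. Of 33 Wnt genes tested, 1 was higher and 4 lower, beside 2.64% and 3.35% of all genes, with a median of 0.144.

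Of 20 FGF signalling genes tested, 2 passed, both lower in the mutants, beside 3.35% of all genes lower, and 2 lay within 2-fold. The antagonist gene Spry1, a feedback target of the pathway, was at 1.64 and 2.71 CPM in the mutants and 17.5, 45.1 and 47.2 CPM in the day 7 wild type (log2 difference -4.07 ± 0.43 (SE), edgeR adjusted p = 0.00683). The receptor gene Fgfr1 was at 112 and 115 against 235, 463 and 381 CPM (log2 difference -1.66, edgeR adjusted p = 0.018). Both rose in the wild type from day 0, where Spry1 was at 4.5, 5.59 and 7.17 CPM and Fgfr1 at 168, 141 and 156 CPM. The feedback genes Dusp6, at 4.64 and 6.49 against 6.73, 23.5 and 36.6 CPM (log2 difference -2, edgeR adjusted p = 0.111), and Etv4, at 0.701 and 1.1 against 2.42, 6.04 and 15 CPM (log2 difference -3.11, edgeR adjusted p = 0.0731), lay below every day 7 wild-type clone without passing. For Dusp6 the log2 difference was -2.43 (edgeR adjusted p = 0.0377) without Kmt2d+/+ clone 1. That of Etv4 was -2.23 (edgeR adjusted p = 0.187) without Kmt2d+/+ clone 3. Of the 20 genes, 11 lay below every day 7 clone in both mutants, beside 21.8% of all genes, and the median was -1.14.

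In the IGF system, Igfbp4, which encodes an IGF-binding protein, was lower at 14.7 and 6.01 against 75.6, 64.5 and 100.1 CPM (log2 difference -2.95, edgeR adjusted p = 0.0382). Irs2, an adaptor gene of the insulin and IGF receptors, was higher at 149 and 114 against 27.8, 39.1 and 26.9 CPM (log2 difference 2.07, edgeR adjusted p = 0.0156). The growth factor gene Igf2 was at 433 and 389 CPM in the mutants against 1.1, 33.1 and 1.45 CPM at wild-type day 7 and 0.0573, 9.54 and 0.169 CPM at day 0, the higher wild-type values being those of clone 2 on both days, and the difference did not pass (log2 difference 5.11, 95% interval 1.21 to 9.01, edgeR adjusted p = 0.133). Its log2 difference was 8.32 (edgeR adjusted p = 0.00851) without Kmt2d+/+ clone 2. Igfbp5 was at 20019 and 14730 against 5497, 7527 and 5276 CPM (log2 difference 1.51, 95% interval -1.1 to 4.12, edgeR adjusted p = 0.447). The log2 difference of Igfbp5 was 1.69 (edgeR adjusted p = 0.0334) without Kmt2d+/+ clone 2. Calls among these 9 genes with 1 clone left out came to 1 without Kmt2d-/- clone 1, 2 without Kmt2d-/- clone 2, 6 without Kmt2d+/+ clone 1, 9 without Kmt2d+/+ clone 2 and 1 without Kmt2d+/+ clone 3. The fold moved by more than 1.5 times without Kmt2d-/- clone 1, to log2 differences of -3.76 for Wnt5a and -3.73 for Igfbp4.

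Interferon-inducible genes had the lowest median difference of the lists. All 30 genes tested had a lower fitted level in the undifferentiated mutants, and the median was -5.11. In both mutants 22 of them lay below every day 7 wild-type clone, beside 21.8% of all genes. The edgeR test passed for 3 of the 30, beside 3.35% of all genes lower. At an unadjusted p under 0.05 there were 25, beside 3945 of all 15467 genes. DESeq2 called 25, limma-voom called 0 with and without clone as a random effect, and edgeR called 16 without Kmt2d+/+ clone 1 and 1 without Kmt2d+/+ clone 2. Summed over the list, levels were 503 and 619 CPM in the mutants and spread from 753 to 8090 CPM over the day 7 wild-type clones. Isg15 (chr4:156199424-156200818), which encodes a ubiquitin-like modifier, was at 0.0483 and 0.183 CPM in the mutants and 13.4, 341 and 27.9 CPM in the day 7 wild type (log2 difference -10.06 ± 2.17 (SE), edgeR adjusted p = 0.0392). In the day 0 wild type it was at 0.115, 1.07 and 0.169 CPM. Wild-type clone 2 was highest and clone 1 lowest at day 7, and the mutants were within the range of the undifferentiated wild type or below it.

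Stat2 and Ifit3 showed the same order of clones. Stat2, which encodes a transcription factor of the interferon pathway, was at 12.7 and 17.5 against 34.8, 172 and 83.1 CPM (log2 difference -2.68, edgeR adjusted p = 0.0449). Irf1, a transcription factor gene induced by interferon gamma, was at 21.8 and 18.1 against 29, 55.2 and 48.5 CPM (log2 difference -1.15, edgeR adjusted p = 0.0441). The RNA-binding effector genes Ifit3 (1.3 and 2.34 against 7.86, 627 and 157 CPM, log2 difference -7.17, edgeR adjusted p = 0.0524) and Ifit1 (0.411 and 0.734 against 2.02, 246 and 102 CPM, log2 difference -7.66, edgeR adjusted p = 0.0593) missed the threshold despite a gap between all clones. Oasl2 ran from 0.29 and 0.115 CPM in the mutants to 1.25, 695 and 132 CPM in the day 7 wild type (log2 difference -10.41, edgeR adjusted p = 0.055), with wild-type clone 1 far below clones 2 and 3. Without Kmt2d+/+ clone 1 these 3 genes passed. Their log2 differences were then -7.75 (edgeR adjusted p = 0.0377) for Ifit3 and -8.24 (edgeR adjusted p = 0.0343) for Ifit1. That of Oasl2 was -10.99 (edgeR adjusted p = 0.0306). Without Kmt2d+/+ clone 2, their highest clone, they did not pass and the differences were smaller. These were -5.5 (edgeR adjusted p = 0.0741) for Ifit3 and -6.5 (edgeR adjusted p = 0.0846) for Ifit1. That of Oasl2 was -8.36 (edgeR adjusted p = 0.0707), and -11.21 without Kmt2d-/- clone 1. Ifit3 and Ifit3b share near-identical sequence, so the split between them is uncertain.

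The guanylate-binding protein genes Gbp8 and Gbp11, the immunity-related GTPase gene Iigp1 and Apol9a, which are not among the 30, gave large ratios. Gbp8 had 2 counts in all in the mutants, at 0.0242 and 0.0229 CPM, against 5, 25.8 and 22.7 CPM in the day 7 wild type, a ratio of summed counts per depth of 781.9 (exact binomial 95% interval 216.3 to 6459, edgeR adjusted p = 0.0273). Gbp11 was at 0.0725 and 0.0459 against 3.98, 16.3 and 16.6 CPM (log2 difference -7.65, edgeR adjusted p = 0.012), and wild-type day 7 exceeded wild-type day 0 1596-fold by summed counts (interval 286.2 to 63070). Iigp1 was at 0.0483 and 0.0688 against 0.954, 129.8 and 23.4 CPM (log2 difference -9.72, edgeR adjusted p = 0.0496) and Apol9a at 0.145 and 0.115 against 2.94, 229 and 87.1 CPM (log2 difference -9.65, edgeR adjusted p = 0.0494). The gene families of these members have near-identical copies, and their single-gene values are uncertain. The intervals cover counting error only. The 7 calls were reduced by leaving out a clone, to 0 without Kmt2d-/- clone 1, 0 without Kmt2d-/- clone 2, 7 without Kmt2d+/+ clone 1, 2 without Kmt2d+/+ clone 2 and 0 without Kmt2d+/+ clone 3. The fold of Isg15 moved by over 1.5 times, to log2 differences of -9.43 without Kmt2d-/- clone 1 and -11.29 without Kmt2d-/- clone 2. Such moves without Kmt2d+/+ clone 2 gave -7.44 for Isg15, -1.97 for Stat2, -7.64 for Iigp1 and -8.42 for Apol9a.

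Promoters of Isg15, Stat2 and Ifit3 are shown because the interferon-stimulated factor complex recognizes repeated GAAA blocks. The pattern of 2 GAAA blocks with any 2 bases between them, searched on both strands with overlaps counted, was found in 11 of the 25 tested members with a promoter entry (44%), in 3.26% of all tested genes with an entry and in 2.98% of 32851 promoters, over the same 250 bases before the RefSeq start (GRCm38.p6). Capitals mark the matches, which on the other strand read as 2 TTTC blocks with 2 bases between them. Isg15 is at chr4:156200819-156201068 on the minus strand with 3 overlapping matches, Stat2 at chr10:128270248-128270497 on the plus strand with 1, and Ifit3 at chr19:34583279-34583528 on the plus strand with 2.
Isg15: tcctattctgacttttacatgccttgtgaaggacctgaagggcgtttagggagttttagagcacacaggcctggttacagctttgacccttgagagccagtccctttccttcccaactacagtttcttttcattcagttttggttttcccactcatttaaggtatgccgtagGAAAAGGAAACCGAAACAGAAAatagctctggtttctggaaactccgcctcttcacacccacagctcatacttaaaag
Stat2: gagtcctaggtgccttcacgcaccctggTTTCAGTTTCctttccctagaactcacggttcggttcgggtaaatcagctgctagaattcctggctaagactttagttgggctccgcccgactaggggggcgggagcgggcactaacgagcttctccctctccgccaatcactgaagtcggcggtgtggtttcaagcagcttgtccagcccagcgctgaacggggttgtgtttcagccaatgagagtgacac
Ifit3: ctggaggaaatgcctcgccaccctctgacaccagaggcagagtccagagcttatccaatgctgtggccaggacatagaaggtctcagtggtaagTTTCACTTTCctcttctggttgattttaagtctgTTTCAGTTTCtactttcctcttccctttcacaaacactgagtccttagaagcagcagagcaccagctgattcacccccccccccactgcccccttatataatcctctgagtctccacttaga
A promoter without these letters in the window may hold a site elsewhere.

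**Figure D4:**
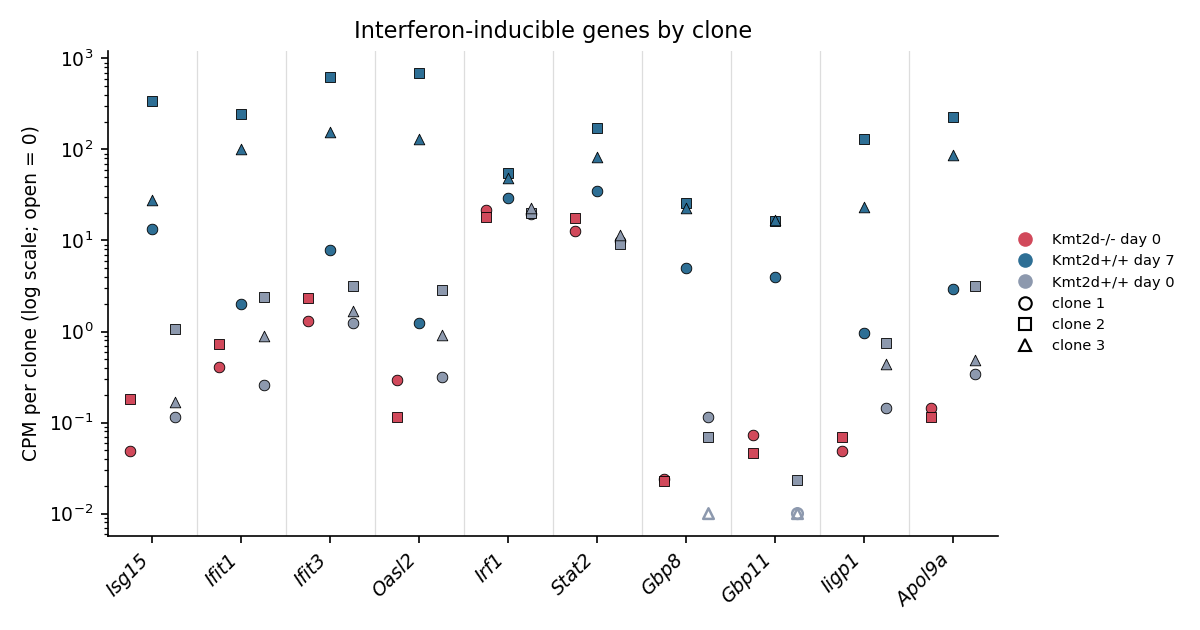
CPM per clone on a log axis for interferon-inducible genes in Kmt2d-/- day 0, Kmt2d+/+ day 7 and Kmt2d+/+ day 0 clones, with open symbols for a level of 0. Points are single clones; day 7 wild-type clone 2 is highest for Isg15, Ifit1, Ifit3 and Oasl2, and both mutant clones lie below every day 7 wild-type clone for all genes shown.

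Of 22 sterol synthesis genes tested, 5 passed, all lower in the mutants, beside 3.35% of all genes lower, and 5 lay within 2-fold. A higher fitted level was found for 2 of the 22, and the median was -0.744. In both mutants 14 lay below every day 7 clone, beside 21.8% of all genes. Hmgcs1, which encodes an early enzyme of the pathway, was at 296 and 156 CPM in the mutants and 599.7, 615 and 495 CPM in the day 7 wild type (log2 difference -1.33, edgeR adjusted p = 0.0304). The squalene synthase gene Fdft1 was at 48.9 and 38.5 against 67.5, 83.7 and 64.9 CPM (log2 difference -0.72, edgeR adjusted p = 0.0459), and the late reductase gene Dhcr7 at 17.7 and 20.7 against 36.9, 47.7 and 32.9 CPM (log2 difference -1.03, edgeR adjusted p = 0.0352). These 3 genes rose in the wild type over 7 days, Hmgcs1 from 328, 235 and 256 CPM, Fdft1 from 28.7, 26.6 and 25.8 CPM and Dhcr7 from 14.5, 18 and 17.4 CPM. The desaturase gene Sc5d (log2 difference -0.83, edgeR adjusted p = 0.0308) and the sterol transport gene Stard4 (log2 difference -0.99, edgeR adjusted p = 0.0459) were the other lower members. For Fdft1 the mutants were above the day 0 wild type in both clones, an intermediate level.

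Among single members of other lists, Ddit4, an inhibitor gene of mTORC1 induced by hypoxia and stress, was at 17 and 19.8 against 108, 88.5 and 96.7 CPM (log2 difference -2.41, edgeR adjusted p = 0.0148). The selenoprotein gene Selenow was at 26.6 and 23.3 against 57.7, 86.8 and 69.7 CPM (log2 difference -1.52, edgeR adjusted p = 0.0166). Both rose in the wild type, and since selenium was added in the medium of the day 7 group alone, medium and genotype cannot be told apart for Selenow. Btg2, an antiproliferative gene, was at 8.77 and 6.6 against 19.7, 15.5 and 21.2 CPM (log2 difference -1.29, edgeR adjusted p = 0.0449). Kmt2e, another SET domain gene, was higher at 157 and 191 against 112, 83.5 and 112 CPM (log2 difference 0.76, edgeR adjusted p = 0.0469), and Cenpf, a mitotic kinetochore gene, at 83.8 and 151 against 58.6, 45.8 and 42.6 CPM (log2 difference 1.26, edgeR adjusted p = 0.0468). Of these 10 genes, the number that still passed was 2 without Kmt2d-/- clone 1, 1 without Kmt2d-/- clone 2, 1 without Kmt2d+/+ clone 1, 4 without Kmt2d+/+ clone 2 and 0 without Kmt2d+/+ clone 3.

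Many housekeeping and cell cycle genes had a 95% interval within 2-fold of the day 7 wild-type level. The 95% interval lay within 2-fold for 17 of 28 S phase genes, 16 of 28 G2 and M phase genes, 16 of 21 unfolded protein response genes, 16 of 21 oxidative phosphorylation genes and 14 of 18 H3K4 methyltransferase complex genes, beside 40.1% of all genes. The replication helicase gene Mcm2 was at 275 and 271 against 281, 332 and 303 CPM (-0.16, interval -0.58 to 0.26). Calr, an endoplasmic reticulum chaperone gene, was at 1158 and 911 against 1118, 1173 and 940.4 CPM (-0.06, interval -0.48 to 0.37). The ATP synthase gene Atp5b was at 922 and 1131 against 1123, 929.8 and 940.5 CPM (0.04, interval -0.36 to 0.44). Smaller differences remain possible: at an unadjusted p under 0.05, 7 of the 18 H3K4 complex genes were higher and 0 lower, and in each cell cycle list 4 were higher and 0 lower. In both mutants 7 of the 18 H3K4 complex genes lay above every day 7 clone, beside 19.6% of all genes. Sulfation (11 of 20) and selenium-linked (9 of 17) lists also held genes within 2-fold. By contrast, 0 of 7 cartilage collagens, 0 of 23 cartilage matrix genes and 1 of 30 interferon genes were within 2-fold.

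**Figure D5:**
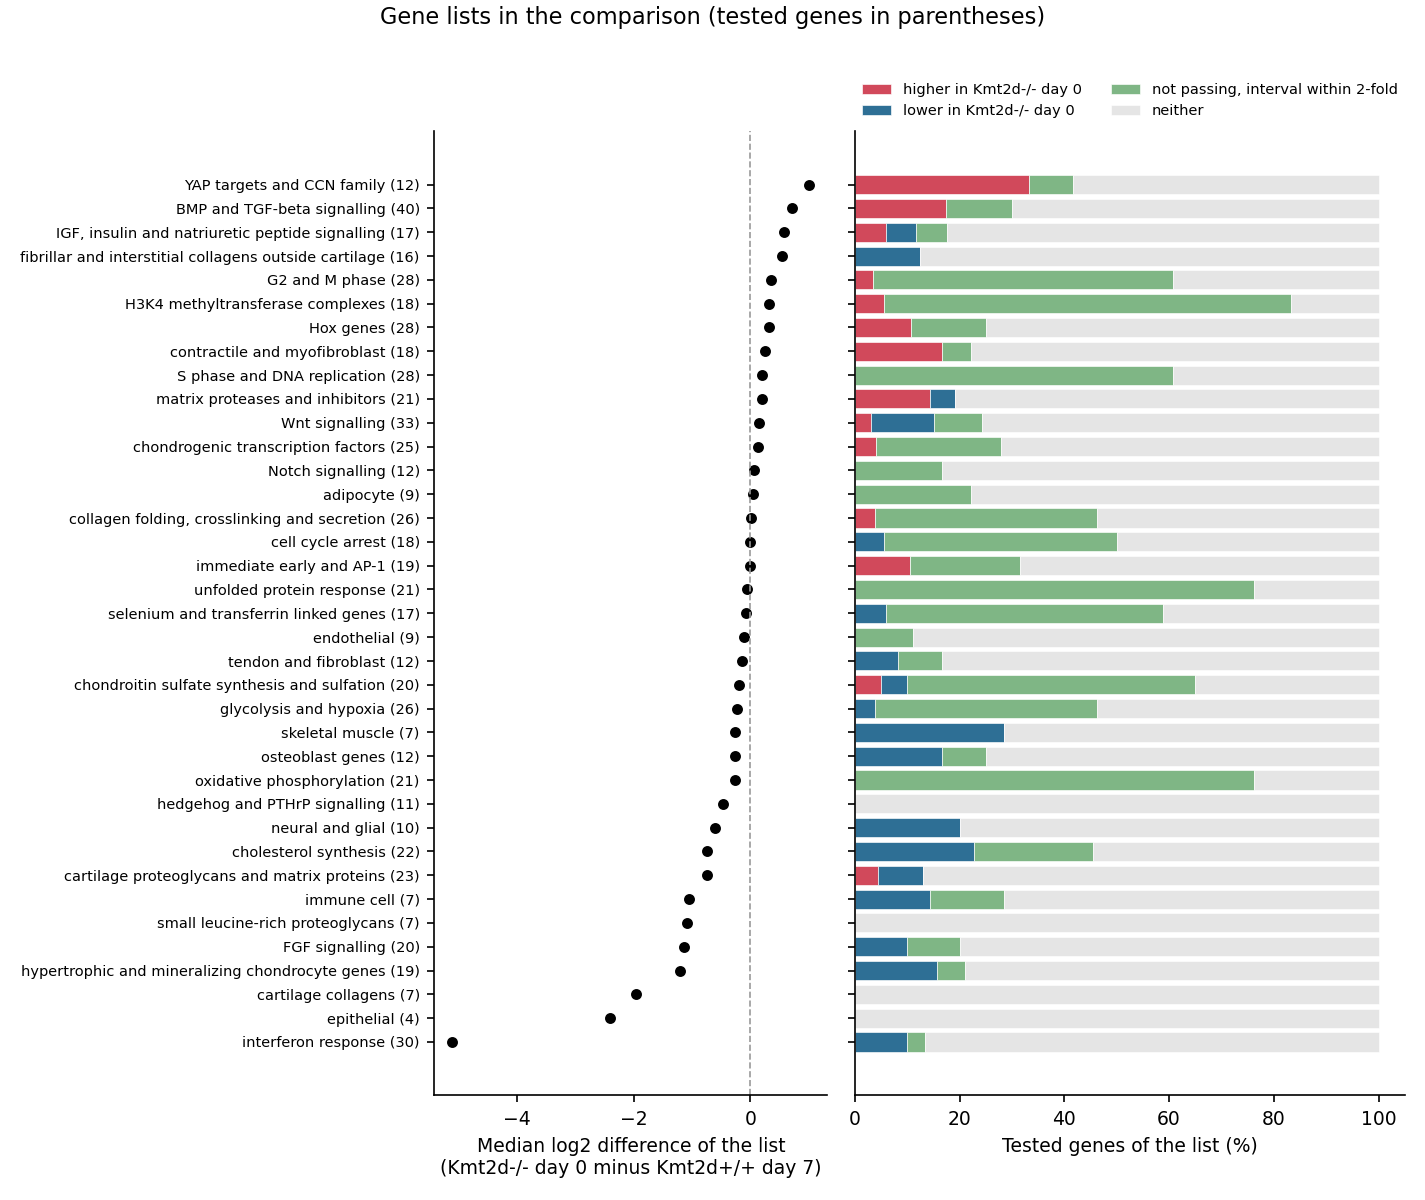
Gene lists with the number of tested genes in parentheses: the left panel shows each list's median log2 difference (Kmt2d-/- day 0 minus Kmt2d+/+ day 7) and the right panel the percent of tested genes that were higher, lower, not passing with an interval within 2-fold, or neither. The interferon list has the lowest median, at -5.11, YAP and CCN genes the highest, at 1.01, and the widest bars within 2-fold belong to H3K4 complexes, unfolded protein response and oxidative phosphorylation.

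Among named genes with the largest positive differences, Syk (chr13:52583173-52648792), which encodes a tyrosine kinase, was at 34.1 and 30.1 CPM in the mutants and 0.477, 0.428 and 0.0682 CPM in the day 7 wild type (log2 difference 6.63 ± 0.62 (SE), edgeR adjusted p = 0.00416). Ntm, which encodes a neuronal cell adhesion protein, was at 4.4 and 15.9 against 0.115, 0.103 and 0.0954 CPM (log2 difference 6.57, edgeR adjusted p = 0.00519), and Gfra4, a receptor gene of the GDNF family, at 6.62 and 3.97 against 0, 0.118 and 0.0818 CPM (log2 difference 6.24, edgeR adjusted p = 0.00917). The wild type was near 0 for Syk and Gfra4 on both days. Eva1b was driven by 1 clone, at 24.6 and 0.527 against 0.0164, 0.103 and 0.0954 CPM (log2 difference 7.38, edgeR adjusted p = 0.0248). Lgr5, which encodes a Wnt-amplifying receptor, was at 42.6 and 16 against 4.06, 2.37 and 2.14 CPM (log2 difference 3.36, edgeR adjusted p = 0.0109), with wild-type day 0 at 1.32, 1.95 and 0.822 CPM. Peg10, an imprinted gene, was at 571 and 1204 against 59.2, 109.5 and 138 CPM (log2 difference 3.12, edgeR adjusted p = 0.00969). In the wild type Peg10 fell over 7 days from 540.5, 307 and 601 CPM. The Rac exchange factor gene Prex2 (log2 difference 3.09, edgeR adjusted p = 0.0436) and the syntrophin gene Sntg1 (log2 difference 3.02, edgeR adjusted p = 0.0238) were higher too.

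Hox genes, which set position along limbs and trunk, included 3 passing members of 28 tested, all higher, beside 2.64% of all genes higher. Hoxd13 was at 3.14 and 11 CPM in the mutants against 0.0164, 0.177 and 0.0136 CPM in the day 7 wild type (log2 difference 6.62, edgeR adjusted p = 0.0186) and exceeded wild-type day 0, which held 2 counts in all, 449.3-fold by summed counts (exact binomial 95% interval 123.8 to 3718). Hoxd3 was at 0.845 and 3.37 against 0.0164, 0.221 and 0.0545 CPM (log2 difference 4.4, edgeR adjusted p = 0.0418) and Hoxa2 at 2.03 and 2.64 against 0.773, 0.752 and 0.873 CPM (log2 difference 1.54, edgeR adjusted p = 0.0352). When each clone was left out in turn, the calls kept among these 11 genes numbered 3 without Kmt2d-/- clone 1, 7 without Kmt2d-/- clone 2, 5 without Kmt2d+/+ clone 1, 8 without Kmt2d+/+ clone 2 and 1 without Kmt2d+/+ clone 3. Where the fold moved by more than 1.5 times, the log2 differences are given here. Leaving out Kmt2d-/- clone 1 gave 2.82 for Eva1b, 7.26 for Hoxd13, 5.07 for Hoxd3 and 7.22 for Ntm. It also gave 2.49 for Lgr5, 1.01 for Prex2 and 1.79 for Sntg1. Leaving out Kmt2d-/- clone 2 gave 8.36 for Eva1b, 5.46 for Hoxd13, 3.08 for Hoxd3 and 5.37 for Ntm. It also gave 2.49 for Peg10, 3.92 for Prex2 and 3.67 for Sntg1. Leaving out Kmt2d+/+ clone 2 gave 8.66 for Hoxd13, 5.76 for Hoxd3 and 6.85 for Gfra4.

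Many of the higher calls lay in a few chromosome segments. The borders of these segments were set by hand with earlier results of these data known. The shares given here therefore describe the data and are not a test. Of the 408 higher genes, 154 (37.7%) lay in chromosome 12 from 40 Mb, the first 20 Mb of chromosome 7 or the first 60 Mb of chromosome 13, segments that hold 5.42% of tested genes, whereas 14 of the 518 lower genes (2.7%) lay there. Without these segments 758 genes passed, 254 higher and 504 lower. Syk, Inhba, Id4, Actn1, Klf6 and Selenow are in them. The part of these segments in single-gene results was not tested.

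Among named genes with the largest negative differences, Ndn, an imprinted gene that encodes necdin, was at 0 and 0.138 CPM in the mutants, 29.9, 23.7 and 39.2 CPM in the day 7 wild type and 67.4, 34.5 and 63.3 CPM in the day 0 wild type (log2 difference -8.74 ± 1.1 (SE), edgeR adjusted p = 0.0064). Cox7b2, a cytochrome oxidase subunit gene, was at 0.121 and 0.0459 against 14.4, 11.7 and 11.6 CPM, with day 0 wild-type values of 11.6, 10.3 and 10.9 CPM (log2 difference -7.21 ± 0.5 (SE), edgeR adjusted p = 0.00159). Both genes were near 0 in the mutants, and in the wild type neither passed the test between the days. Ly6c1, a surface protein gene that interferon can induce, had 3 counts in all in the mutants against 18.2, 22.7 and 4.79 CPM, a ratio of 420.7 (exact binomial 95% interval 143.8 to 2041, edgeR adjusted p = 0.00821). It rose in the wild type from 0.344, 0.812 and 0.464 CPM. Sel1l3 was at 0 and 0.0917 against 15.6, 1.65 and 7.16 CPM (log2 difference -7.38, edgeR adjusted p = 0.0208).

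Some lower genes rested on 2 or 3 mutant counts. The iron transport gene Heph gave a ratio of day 7 wild type over mutant of 345.4 (exact binomial 95% interval 95.46 to 2854, edgeR adjusted p = 0.0457), at 4.72, 18.2 and 1.66 CPM in the day 7 wild type. Prok2, which encodes a secreted peptide, gave 179.6 (interval 61.32 to 872.1, edgeR adjusted p = 0.0163) at 7.63, 3.46 and 7.92 CPM, and rose in the wild type from 0, 0.0928 and 0.148 CPM. Tcp11x2 gave 223.1 (interval 61.61 to 1845, edgeR adjusted p = 0.0119), with a near-identical copy that leaves its value uncertain. In mutant clone 1 Ndn, Ly6c1, Heph, Tcp11x2, Prok2 and Sel1l3 were at 0 counts, so no value is given without mutant clone 2. For Ly6c1, Heph, Tcp11x2 and Prok2 no fitted difference is given with any clone left out, because the mutants hold at most 3 counts. Calls among these 7 genes with 1 clone left out came to 2 without Kmt2d-/- clone 1, 4 without Kmt2d-/- clone 2, 5 without Kmt2d+/+ clone 1, 6 without Kmt2d+/+ clone 2 and 2 without Kmt2d+/+ clone 3. Where the fold moved by more than 1.5 times, the log2 differences without Kmt2d-/- clone 1 were -7.78 for Ndn, -8.03 for Cox7b2 and -6.43 for Sel1l3. That of Sel1l3 without Kmt2d+/+ clone 1 was -6.49.

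The genes with the largest changes over 7 days in the wild type are set beside the undifferentiated mutants here. They were picked for a large gap between the wild-type days, and the same day 7 libraries enter the comparison with the mutants. That choice favours a difference from day 7, so the p-values against the mutants are not an independent test. Slpi, which encodes a protease inhibitor, rose in the wild type from 0.0286, 0.395 and 0.126 to 44.2, 4.51 and 3.63 CPM (log2 difference 6.52, edgeR adjusted p = 0.0321), and the mutants were at 0.121 and 0.275 CPM, lower than day 7 (log2 difference -6.44, edgeR adjusted p = 0.0469). Sema3b, a semaphorin gene, and Car9, a hypoxia-induced carbonic anhydrase gene, rose too, and the mutants were at 0.0966 and 0.138 CPM and 0.483 and 0.0917 CPM, against 25, 0.811 and 2.41 CPM and 1, 15 and 1.06 CPM, without passing (log2 difference -6.3, edgeR adjusted p = 0.0619 and log2 difference -4.3, edgeR adjusted p = 0.129 respectively). The log2 difference of Sema3b was -6.84 (edgeR adjusted p = 0.0421) without Kmt2d+/+ clone 2. It was -3.75 (edgeR adjusted p = 0.113) without Kmt2d+/+ clone 1. That of Car9 was -1.85 (edgeR adjusted p = 0.191) without Kmt2d+/+ clone 2. Car9 was at -5.92 without Kmt2d-/- clone 1 and -3.55 without Kmt2d-/- clone 2. Of the falling genes, Gprin3 fell from 168, 87 and 119.5 to 8.85, 16.6 and 18.4 CPM (log2 difference -3.09, edgeR adjusted p = 0.00741), and the mutants were at 112 and 81 CPM, higher than day 7 (log2 difference 2.72 ± 0.35 (SE), edgeR adjusted p = 0.00763).

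Further genes that fell in the wild type did not pass against the mutants. Adam12, a protease gene, was at 5.58 and 3.16 CPM in the mutants between wild-type day 0 values of 26, 8.96 and 15.2 CPM and day 7 values of 1.37, 0.501 and 1.73 CPM (log2 difference 1.86, edgeR adjusted p = 0.0954). Lgr6 was at 42.3 and 22.5 CPM, where the wild type went from 149, 32.4 and 53 to 11.2, 3.6 and 4.24 CPM (log2 difference 2.35, edgeR adjusted p = 0.0936), and Ankrd1, a YAP target gene, at 24.5 and 29.7 CPM between 77.2, 60.7 and 94.3 and 11.5, 4.01 and 11.2 CPM (log2 difference 1.61, edgeR adjusted p = 0.216). For these 3 genes both mutant clones lay above every day 7 wild-type clone, and 0 of the 3 differences passed. Inhbb, an activin subunit gene, overlapped at 6.06 and 1.12 against 0.345, 1.19 and 0.777 CPM (log2 difference 2.21, edgeR adjusted p = 0.0992). Plk2, which encodes a stress-responsive kinase, was already at the day 7 level, at 132 and 82 CPM against 75.2, 86.5 and 94.1 CPM (log2 difference 0.33, 95% interval -0.5 to 1.15, edgeR adjusted p = 0.618), far below its wild-type day 0 values of 1065, 418 and 581 CPM (log2 difference -2.69, edgeR adjusted p = 0.023). Its interval still allows a difference beyond 2-fold. The 2 calls were reduced by leaving out a clone, to 0 without Kmt2d-/- clone 1, 1 without Kmt2d-/- clone 2, 2 without Kmt2d+/+ clone 1, 2 without Kmt2d+/+ clone 2 and 0 without Kmt2d+/+ clone 3. The fold of Slpi moved by over 1.5 times, to log2 differences of -7.14 without Kmt2d-/- clone 2 and -4.34 without Kmt2d+/+ clone 1.

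Tendon and fibroblast markers summed to 4050 to 5090 CPM in the mutants and 3690 to 5050 CPM in the day 7 wild type, and adipocyte markers to 242 to 305 CPM and 287 to 461 CPM, so both sums overlapped between the groups. Summed markers of immune, skeletal muscle and endothelial cells were lower in both mutants than in every day 7 wild-type clone, while epithelial sums overlapped. Single genes went both ways, with 3 higher and 4 lower fitted levels for skeletal muscle and 3 and 6 for endothelial markers. The test passed for 0 of 9 endothelial and 0 of 4 epithelial genes. The 12 immune markers summed to 3.88 to 4.76 CPM in the mutants and 16.4 to 34.2 CPM in the day 7 wild type, with 3 or 4 markers at 0 in each day 7 library, and 1 of the 7 tested passed. Ptprc, Adgre1, Cd3e and Tyrobp, defining markers of blood cell types, did not pass the filter on low counts. Cd74, which interferon can induce, was at 0.0966 and 0.229 against 3.49, 5.91 and 9.27 CPM (log2 difference -5.23, edgeR adjusted p = 0.0288), and Laptm5 at 0.362 and 0.0688 against 8.67, 21.5 and 8.94 CPM (log2 difference -5.91, edgeR adjusted p = 0.0547), with a log2 difference of -5.35 (edgeR adjusted p = 0.0256) without Kmt2d+/+ clone 2. Laptm5 moved to a log2 difference of -7.52 without Kmt2d-/- clone 1 and -5.16 without Kmt2d-/- clone 2. The part of immune cells in the interferon differences was not tested. The 14 skeletal muscle markers summed to 3.41 to 4.17 CPM against 4.85 to 14.5 CPM. Tnni2 was at 0.0966 and 0 against 3.08, 1.49 and 0.641 CPM (log2 difference -5.12, edgeR adjusted p = 0.0365), and Tnnt3, at 0 in both mutants, was at least 3.23-fold lower than in the day 7 wild type at 0.329, 0.192 and 0.177 CPM (edgeR adjusted p = 0.0267). Epithelial markers summed to at most 2.21 CPM and endothelial markers to 17.3 to 26.7 CPM over both groups.

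Neural and glial markers overlapped in sum, at 54.9 to 128 CPM in the mutants and 37 to 108 CPM in the day 7 wild type, and 2 of 10 passed. Mbp, at 0.145 and 0.413 against 3.32, 2.8 and 1.15 CPM (log2 difference -3.1, edgeR adjusted p = 0.0357), and S100b, also expressed by chondrocytes, at 0.266 and 0.16 against 2.12, 4.63 and 2.77 CPM (log2 difference -3.88, edgeR adjusted p = 0.0357), were lower. Mkx, a tendon transcription factor gene, was lower at 9.98 and 14 against 38.7, 23.1 and 32.5 CPM (log2 difference -1.39, edgeR adjusted p = 0.0333). Tnni2 is at 0 in mutant clone 2, so it has no value without mutant clone 1. In bulk RNA, fewer cells of a type and less RNA per cell cannot be told apart. Of these 6 genes, the number that still passed was 0 without Kmt2d-/- clone 1, 1 without Kmt2d-/- clone 2, 0 without Kmt2d+/+ clone 1, 2 without Kmt2d+/+ clone 2 and 0 without Kmt2d+/+ clone 3. Where the fold moved by more than 1.5 times, the log2 differences without Kmt2d-/- clone 2 were -4.13 for Tnni2, -5.97 for Cd74 and -4.04 for Mbp. That of Tnni2 without Kmt2d+/+ clone 1 was -4.42.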

How the data were processed

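Polyadenylated RNA of 10 libraries was sequenced. The deposited values are gene-level estimated counts from the authors, not normalized, for 27911 genes. Salmon, DESeq2, limma, edgeR and the GRCm38 build are named in the submitters' processing notes, without versions. No source used here says whether counting used strand, so antisense and overlapping genes cannot be told apart. The 2 flow-cell runs of each library were summed and rounded. Symbols and coordinates came from GENCODE (GRCm38).

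One mean per group was fitted to all 10 libraries with edgeR 4.0.16 in R 4.3.3 (filterByExpr, TMM, quasi-likelihood F test, Benjamini-Hochberg over 15467 genes, threshold 0.05, 6 residual degrees of freedom). The 95% intervals are Wald intervals from that fit. On simulated data for this comparison (15467 genes) 16%, 82%, 90% and 100% of genes changed 2-, 4-, 8- and 16-fold were recovered. Each fold was given to 50 genes. The simulated libraries were independent draws from the fitted dispersion, with no line shared between days and no further spread of single genes. Recovery in the real comparison may therefore differ. Alternatives used DESeq2 1.42.0, limma 3.58.1, other scalings, filters and samples. Counting intervals and the floor of 3 counts cover counting error only.

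Named genes were Kmt2d, Sox9 and Shox2, the 12 largest passing differences in each direction with at least 5 CPM and no overlap of clones, cartilage list members with at least 5 CPM, up to 3 passing members per direction (or the most abundant member) of other lists, and the 8 largest rises and falls in the wild type; 25 further genes were chosen after their values were seen. Not all are printed. The comparison, lists and members were chosen with earlier results of these data known. Same-numbered mutant and wild-type clones have different names in the labels, so the main fit does not pair them. Mutant clone 1 and wild-type clone 2 share the name 10-7, and whether they are related is not given in the sources used here. Deviations from the group means correlated at -0.0667 and -0.103 for same numbers and at 0.103 for the shared name. With 2 mutant clones these deviations mirror each other, so such correlations cannot decide on pairing. The wild-type days share lines (correlations of deviations 0.35, 0.559 and 0.407). One gene that the rule for named genes picked is not reported here.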

Additional observations from a re-analysis of the deposited data

How the results depend on the processing

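Of 3776 values for 156 named genes, 2850 kept direction and side of the threshold, 805 lost their call, 80 gained one, 41 changed sign and 8 had no adjusted p in DESeq2. None of the 87 passing genes changed sign in the alternatives run. Genes passing in the main comparison numbered 2477 with DESeq2, 209 with the 2 groups alone in the fit, and 27 to 1054 with 1 clone left out; the remaining alternatives were within 1.5 times of 926, and the count within 2-fold moved less than that throughout. The share of calls that were higher, 44.06%, was 27.75% with the 2 groups alone and 38.54%, 37.47% and 39.93% with upper-quartile scaling, no filter and DESeq2, and 11.11% to 62.42% with 1 clone left out. The wild-type day comparison gave 2280 with DESeq2, 3457 with clone as a random effect in limma-voom (clone correlation 0.49), and 0 to 862 with 1 clone left out. The day 0 genotype comparison gave 1632 with DESeq2, 193 with clone as a random effect, 9 with the 2 groups alone, 125 with clone number as a replicate block and 10 to 912 with 1 clone left out. The replicate block gave 718 calls in the main comparison and 607 over the wild-type days, and kept 60 of the 87 named calls. Non-passing genes that changed sign (log2 difference) were Sox9 at -0.15 under the replicate block, Acan at -0.12 in limma-voom and -0.13 with clone as a random effect, Omd at 0.25 and Pecam1 at 0.0296 under the replicate block, Pecam1 at 0.22 in flow-cell run 1, and Arid5a at -0.0797 in limma-voom, -0.0784 with clone as a random effect, -0.00785 with upper-quartile scaling and -0.0756 under the replicate block. With 1 clone left out the lowest and highest values were Kmt2d -0.35 to 0.12, Sox9 -0.069 to 0.64, Acan -2.33 to 1.86, Hapln1 -2.19 to 0.88, Omd -0.28 to 0.21, Prelp -0.90 to 1.73, Arid5a -0.67 to 0.52, Creb3l2 -0.28 to 0.074, Nfib -0.19 to 0.52, Runx3 -0.73 to 0.12, Sox5 -2.17 to 0.57, Sox6 -0.27 to 1.12, Trps1 -0.79 to 0.13, Zbtb20 -0.092 to 0.60, Bgn -0.23 to 1.09, Smo -0.081 to 0.78, Fasn -0.064 to 0.10, Pecam1 -0.10 to 0.10, Cdh1 -1.07 to 0.016, Calr -0.24 to 0.11, Atp5b -0.11 to 0.18, Plk2 -0.052 to 0.63. The cause of these changes was not tested. With 2 mutant and 3 wild-type clones, a 2-fold change was recovered in 16% of simulated cases, so many differences of that size may be missed here. The simulated libraries shared no lines between days, so this share need not hold for the real clones.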

Other observations

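Immediate early and AP-1 genes, which respond quickly to growth factors and stretch, included 2 higher members of 19 tested, beside 2.64% of all genes. Fosl2, an AP-1 gene, was at 460.5 and 379.7 CPM in the undifferentiated mutant clones and 222, 233 and 229.5 CPM in the day 7 wild-type clones (log2 difference 0.88, edgeR adjusted p = 0.0386). Klf6, a zinc finger gene on the chromosome 13 segment, was at 169 and 163 against 70.4, 71.6 and 83.5 CPM (log2 difference 1.14, edgeR adjusted p = 0.0457). When each clone was left out in turn, the calls kept among these 2 genes numbered 0 without Kmt2d-/- clone 1, 1 without Kmt2d-/- clone 2, 1 without Kmt2d+/+ clone 1, 0 without Kmt2d+/+ clone 2 and 0 without Kmt2d+/+ clone 3. Of 12 Notch genes tested, 0 passed by edgeR, 3 had an unadjusted p under 0.05, and DESeq2 called 2 higher and 2 lower. The most abundant, the receptor gene Notch2, was at 279 and 356 against 204, 196 and 225 CPM (log2 difference 0.61, 95% interval 0.25 to 0.96, edgeR adjusted p = 0.0522).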
